A study of Mus musculus with 51 samples.

Results

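The genes described here are the 38 members of a list for DNA replication and nucleotide synthesis. It runs from the proteins that mark replication origins, through the helicase, the polymerases, the sliding clamp and the enzymes that finish the lagging strand, to the enzymes that make deoxynucleotides. The list also holds Uhrf1, which brings DNA methylation onto newly made DNA. Of the probe sets annotated to a gene alone, the one with the highest mean over the arrays stood for it. All 38 listed genes had such a probe set, among 18192 genes on the array, and all 38 passed the filter on low values that left 15150 genes for testing.

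Expression was measured on 51 Affymetrix MOE430 2.0 arrays, which cover the mouse genome, in a model of breast cancer driven by the Etv6-NTRK3 fusion, a signalling kinase joined to part of a transcription factor. In these mice Wap-Cre, a recombinase under a milk protein promoter that is active in mammary epithelium, turns on a conditional Etv6-NTRK3 knockin allele. The same recombinase opens the Rosa-Stop-lacZ reporter, so that cells carrying the active fusion can be sorted by lacZ. Ages are not given in the labels used here.

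The arrays fall into 6 groups. Wild-type glands were whole mammary tissue of normal mice without the fusion (5 mice). Sorted hyperplasia was lacZ+ epithelium from hyperplastic glands of Wap-Cre;Etv6-NTRK3 mice (4 mice), and sorted primary tumors were lacZ+ cells of tumors of that genotype (8 tumors of 6 mice). Unsorted primary tumors were whole tumors of the same genotype (22 tumors of 14 mice on 23 arrays, with the 2 arrays of tumor CR115 averaged). Transplanted tumors had been grown in RAG2-/- recipients, which lack mature B and T cells, from tumors of the same genotype. They were sorted in 7 cases from 5 mice of origin, after 1 to 4 passages, and unsorted in 4 cases from only 2 mice of origin, CR90 and CR115. No primary tumor was profiled both sorted and unsorted. The epithelial keratin Krt8 had group means between 12.05 and 12.51 on the log2 scale in all 6 groups. Epcam, an epithelial surface protein, was less even, from 11.03 in hyperplasia and 11.45 in glands to 12.20 in unsorted primary tumors and 12.49 in unsorted transplants.

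Before a cell copies its DNA, the origin recognition complex with Cdc6 and Cdt1 loads rings of Mcm2 to Mcm7 onto the origins. In S phase Cdc45 and the GINS complex turn these rings into active helicases, and primase, the polymerases, the clamp Pcna and its RFC loader copy both strands while ribonucleotide reductase and thymidine enzymes supply the precursors. Most of these genes are transcribed from late G1 into S phase under E2F transcription factors, so in a tissue their RNA is commonly read as a sign of dividing cells, and in the mammary gland it rises in pregnancy and in tumors.

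RefSeq promoter windows, from 250 bases before to 50 bases after the transcription start on GRCm38.p6, were at hand for 32 of the 38 members. The windows were searched on both strands for 4 spellings of the E2F site, TTTCCCGC, TTTGGCGC, TTTCGCGC and TTTGCCGC, and overlapping matches were kept. At least 1 match stood in a window of 13 of the 32 genes (40.6%), against 2.605% of 27025 genes with a window. The 8 members below had a match upstream of the start, and they are shown because genes that carry this site and genes that do not are both among the largest differences described further on. Capitals mark the matches, each sequence runs 5′ to 3′ on the strand of the gene, and matches that overlap form a single run.
Mcm5 (chr8:75109336-75109387, plus strand): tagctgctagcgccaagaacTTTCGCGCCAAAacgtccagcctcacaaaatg
Mcm6 (chr1:128359725-128359835, minus strand): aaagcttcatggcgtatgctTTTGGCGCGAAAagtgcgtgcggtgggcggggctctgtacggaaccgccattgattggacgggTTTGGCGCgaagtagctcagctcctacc
Mcm7 (chr5:138172021-138172068, minus strand): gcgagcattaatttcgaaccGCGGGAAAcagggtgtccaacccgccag
Cdc6 (chr11:98907993-98908040, plus strand): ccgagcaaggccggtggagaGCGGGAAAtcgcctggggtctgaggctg
Orc1 (chr4:108579407-108579453, plus strand): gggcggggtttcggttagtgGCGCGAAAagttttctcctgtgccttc
Pola1 (chrX:93632266-93632313, minus strand): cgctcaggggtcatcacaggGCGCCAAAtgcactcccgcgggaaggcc
Rfc3 (chr5:151651209-151651238, minus strand): ccggaagtgacgtcgcacgcTTTCGCGCtc
Uhrf1 (chr17:56304108-56304155, plus strand): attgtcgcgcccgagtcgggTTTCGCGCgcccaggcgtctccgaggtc

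The Mcm6 window held 3 matches and the Mcm5 window 2 that overlap. The windows of Mcm7 and Rfc3 held 1 more match each, at or after the start, and Cdt1, Lig1, Mcm3, Pold1 and Pole2 had matches only after it. The windows of Tk1, Rrm2 and Mcm2, genes with large differences below, held none of the 4 spellings. The CCAAT box, searched as CCAAT on both strands, stood in windows of 21 of the 32 members (65.6%), against 41.1% of all genes. The cell cycle homology region element, searched as TTTGAA, stood in 4 of 32 (12.5%), against 20.2% of all genes. A match describes letters in a window, and factor binding was not measured.

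Values are log2 intensities with a floor at 5, so a difference of 1 is a doubling. The levels of different probe sets were not compared. Averaged over the 38 members, the level was 7.09 ± 0.46 (SD, n = 5) in glands and 7.70 ± 0.11 (n = 4) in sorted hyperplasia. It was 7.55 ± 0.15 (n = 8) in sorted primary tumors, 7.60 ± 0.21 (n = 7) in sorted transplants, 7.90 ± 0.31 (n = 22) in unsorted primary tumors and 8.22 ± 0.24 (n = 4) in unsorted transplants. Glands had the lowest group mean for 26 of the 38 genes, and unsorted transplants the highest for 30. The ranges of groups next to each other in this order overlapped, as for sorted primary tumors (7.33 to 7.71) and sorted transplants (7.33 to 7.93).

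**Figure D1:**
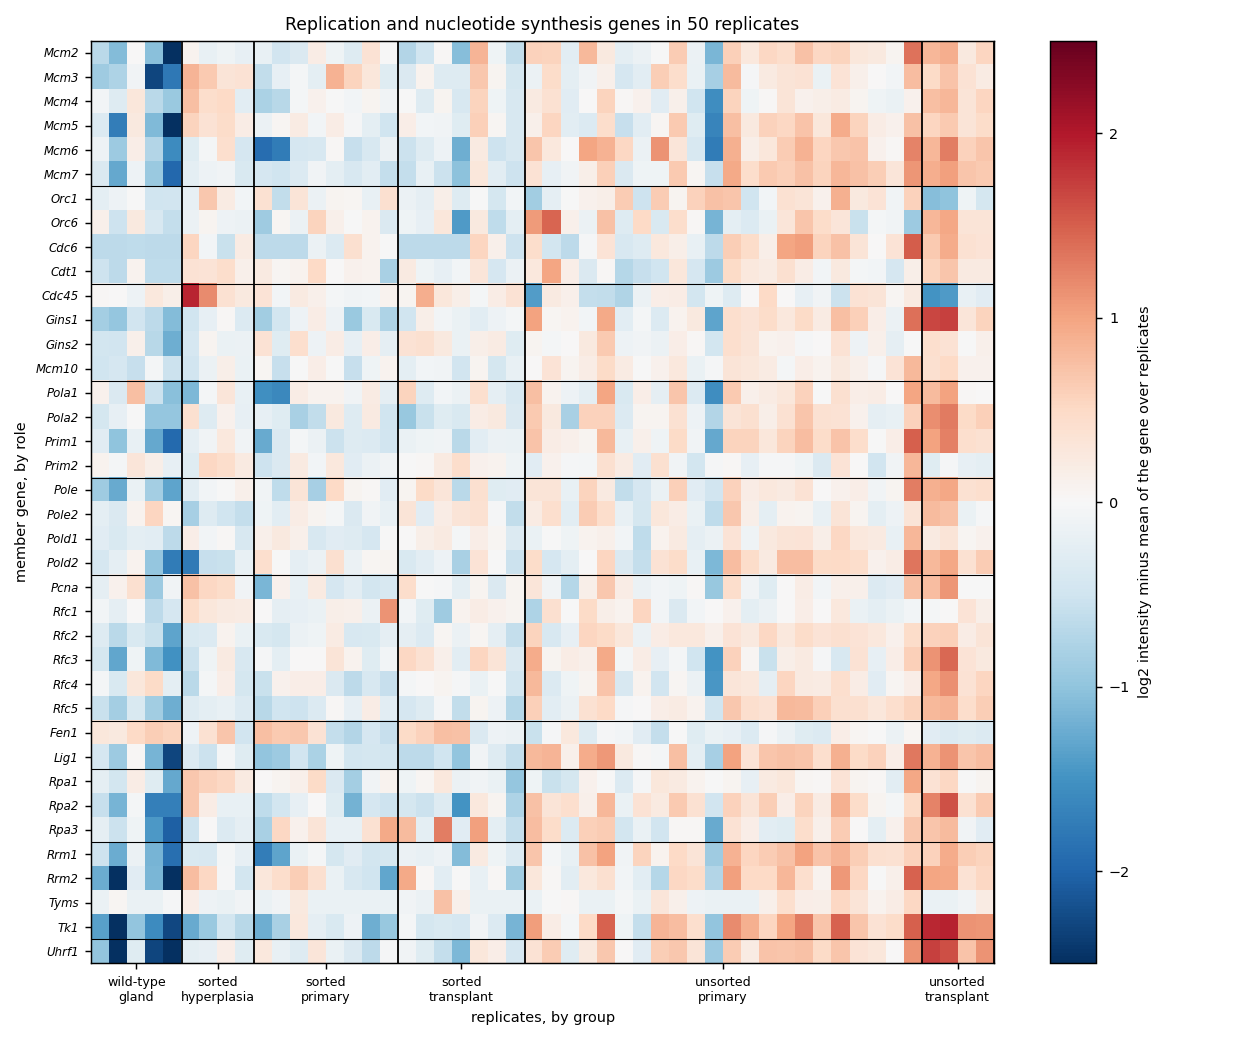
Log2 intensity of each of the 38 genes (rows) in each of the 50 replicates (columns, by group), as the difference from the gene's mean over all replicates. The glands are mostly low, the unsorted transplants mostly high, and single columns such as gland H235 and unsorted tumor D14T2 are low across most rows.

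The glands were the least uniform group in the members, with unsorted primary tumors close behind. Their median SD over the members was 0.48, against 0.45 in unsorted primary tumors and 0.23 in hyperplasia. They had the largest SD of all 6 groups for 19 of the 38 genes. Gland H235 was the lowest gland for 23 members and gland G397 the highest for 31. The same counts over all genes were not made. The mean over the members was 6.46 in H235 and 7.69 in G397, the latter above every other gland and above 5 of the 8 sorted tumors. In H235 the mean of the mitosis list was also low, at 5.68 against 6.76 in G397, while their epithelial marker means were 10.49 and 10.64. Another gland, G340, had the highest log2 ratio of 3′ to 5′ signal for Actb on any array, 2.18, and a Gapdh ratio of 1.14, a sign of shortened RNA. The part of RNA quality or of the cell makeup of a gland in these values was not tested.

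The first comparison asks how whole tumors differ from whole normal glands. Replication genes were mostly higher in the tumors: 26 of the 38 members were called higher and 1, Fen1, lower (limma, adjusted p under 0.05 over all 15150 genes). Among all genes tested, 29.4% were called higher and 21.5% lower. The median difference of the members was 0.94, and that of all genes 0.10. With a floor of 64 or 100 intensity units the member median was 0.52 or 0.51. Of the 27 members called, 17 stayed called in every alternative setting run. Fen1 is counted among these, but with the mean of its probe sets it was called in the opposite direction (0.79). Of the members 28 had an unadjusted p under 0.05, against 56% of all genes. For no member did every tumor lie above every gland or below it, as happened for 6.7% and 7.56% of all genes.

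The largest differences were in thymidine and deoxynucleotide supply and in methylation maintenance. Tk1, the cytosolic thymidine kinase that salvages thymidine, read 5.00, 5.23, 5.94, 6.14 and 6.52 in the 5 glands, and 6.52 at the lowest, 8.19 at the median and 9.004 at the highest of the 22 tumors. In 21 of 22 tumors it was above every gland. The difference was 2.43 ± 0.30 (SE), a 5.40-fold change with limma adjusted p = 5.44e-09. Rrm2, the regulated small subunit of ribonucleotide reductase, read 5.38, 6.45, 7.92, 8.03 and 8.89 in glands and 8.43, 9.51 and 10.64 (lowest, median, highest) in tumors, of which 20 lay above every gland. It differed by 2.18 ± 0.34 (4.53-fold, adjusted p = 7.63e-07). Rrm1, the large subunit, rose by 1.46 ± 0.23 (adjusted p = 1.17e-06) and was above every gland in 20 tumors. Tyms, which makes thymidylate from deoxyuridylate, stayed between 5.00 and 5.90 in all 50 replicates, so its probe set was at or near the floor and it gave no measure of the gene. Uhrf1, which reads hemimethylated DNA behind the fork, read 5.00, 5.39, 5.77, 7.07 and 7.75 in glands and 7.14, 8.47 and 9.17 in tumors, and it differed by 2.28 ± 0.27 (4.86-fold, adjusted p = 3.44e-09).

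**Figure D2:**
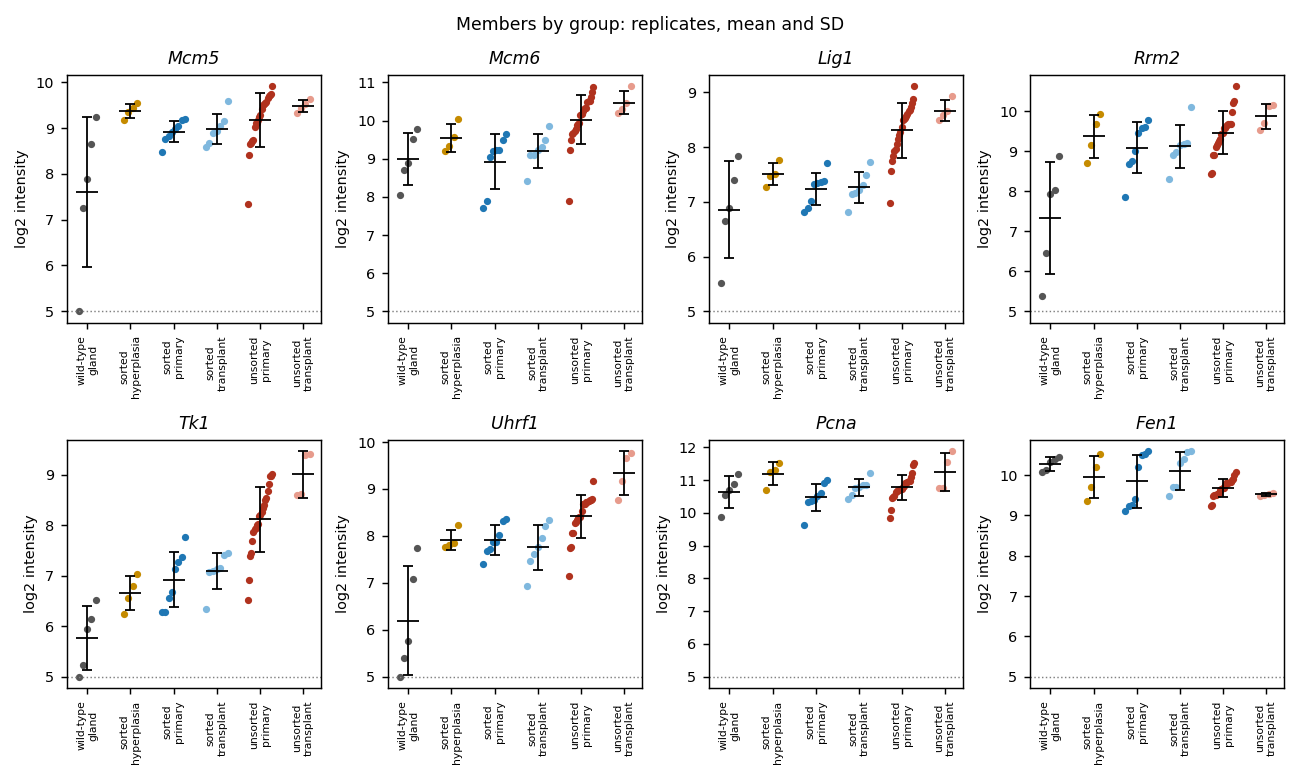
Log2 intensity of 8 genes in every replicate of the 6 groups (points), with the mean and SD of each group (bars) and the floor at 5 (dotted line). Tk1 and Uhrf1 are lowest in the glands and highest in the unsorted transplants. Pcna differs little between glands and unsorted primary tumors, and the first-ranked Fen1 probe set is highest in the glands.

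Of the 6 subunits of the MCM ring, 5 rose. Mcm5 read 5.00 in gland H235, then 7.25, 7.89, 8.64 and 9.23 in the other glands, and 7.34, 9.26 and 9.92 in tumors. This gave the widest overlap among the large differences, with 12 of 22 tumors above every gland, and a difference of 1.64 ± 0.33 (3.12-fold, adjusted p = 4.33e-05). Mcm2 (1.47 ± 0.27), Mcm7 (1.34 ± 0.21), Mcm3 (1.32 ± 0.22) and Mcm6 (1.06 ± 0.29) followed. Mcm4 had a difference of 0.36 ± 0.20 and was not called (adjusted p = 0.132). It lay between 7.46 and 8.67 in glands and between 6.83 and 8.96 in tumors, and it was called without gland replicate 3.

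Genes that load and start the helicase moved less evenly. Cdc6 was at the floor in 4 glands and at 5.01 in the fifth, and read 5.00, 5.94 and 7.16 in tumors. Its difference was 0.96 ± 0.22 (adjusted p = 0.000325), on values so near the floor that the call was lost with a floor of 64 or 100 intensity units. Cdt1, its partner in loading, differed by 0.50 ± 0.18 (adjusted p = 0.0206), a call lost without gland replicate 2, 4 or 5. The origin recognition subunits Orc1 (0.45 ± 0.21, adjusted p = 0.0721) and Orc6 (0.30 ± 0.27) were not called. Gins1 (1.12 ± 0.25), Gins2 (0.61 ± 0.15) and Mcm10 (0.60 ± 0.12), which help to activate the helicase, rose. With a floor of 100 Gins1 (0.32) and Gins2 (0.17) lost their calls, and with the mean of probe sets Gins2 (0.45) and Mcm10 (0.05) did. Cdc45, the other core partner of the active helicase, had a difference of -0.20 ± 0.22 (adjusted p = 0.464), and 9 of 22 tumors lay below every gland.

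At the fork, the catalytic primase subunit Prim1 rose by 1.30 ± 0.24 (adjusted p = 1.14e-05), with 21 of 22 tumors above every gland. Its partner Prim2 had a difference of -0.05 ± 0.14 and the catalytic polymerase alpha subunit Pola1 0.42 ± 0.30, neither of them called, while the accessory subunit Pola2 rose by 0.73 ± 0.21. Of the leading and lagging strand polymerases, Pole (1.07 ± 0.21), Pold1 (0.51 ± 0.14) and Pold2 (0.96 ± 0.25) rose, and the accessory subunit Pole2 (0.07 ± 0.18) was not called. Pola2 (0.01) and Pole (0.10) lost their calls with a floor of 100. All 3 subunits of RPA, which coats single-stranded DNA, were called higher, led by Rpa2 at 1.44 ± 0.23 (adjusted p = 1.5e-06). The calls of Rpa1 (0.51 ± 0.18) and Rpa3 (0.98 ± 0.30) were both lost without gland replicate 5.

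The clamp and its loader were split. Rfc5 (1.12 ± 0.15, adjusted p = 3.79e-08), Rfc2 (0.94 ± 0.14) and Rfc3 (0.95 ± 0.24) rose, and Rfc5 and Rfc2 were each above every gland in 21 of 22 tumors. Rfc3 lost its call with a floor of 100 (0.16). Rfc1 (0.22 ± 0.16) and Rfc4 (0.04 ± 0.21) were not called. Pcna, often used as a proliferation marker, read 9.88, 10.56, 10.70, 10.89 and 11.19 in glands and 9.83, 10.76 and 11.52 in tumors, and only 3 of 22 tumors lay above every gland. Its difference was 0.14 ± 0.21, with a 95% interval from -0.28 to 0.55 (adjusted p = 0.61). Lig1, the ligase that seals lagging strand fragments, read 5.51, 6.65, 6.89, 7.39 and 7.84 in glands and 6.98, 8.44 and 9.12 in tumors, a difference of 1.48 ± 0.23 (2.79-fold, adjusted p = 9.88e-07).

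Fen1, the nuclease that trims lagging strand flaps, was the only member called lower, and its probe sets disagreed. The first-ranked set, 1436454_x_at, read 10.09 to 10.46 in glands and 9.24 to 10.09 in tumors, with 21 of 22 tumors below every gland and a difference of -0.60 ± 0.18 (adjusted p = 0.00427). The other set, 1421731_a_at, rose from 5.65 ± 0.54 in glands (SD, n = 5) to 7.83 ± 0.44 in tumors (n = 22), a difference of 2.18 ± 0.24 (limma over all probe sets, adjusted p = 5.08e-10). The first-ranked set also split within sorted primary tumors, with 10.19 to 10.59 in F464T, F405T, E344T and G294T. In F433T1, F433T3, F433T4 and G421T1 it read 9.10 to 9.41. The Gapdh ratios were -0.36 to -0.11 in the former tumors and -0.01 to 0.11 in the latter. The part of the arrays in these values was not tested. In Affymetrix naming the suffix x marks sets in which some probes may match other genes as well. The direction of Fen1 therefore cannot be given from these arrays.

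Other members were also measured by more than 1 probe set. In a fit of every probe set, added after the gene-level values were seen, 72 sets measured the 38 genes and 25 genes had several. Of the 72 sets, 53 were called higher and 3 lower in tumors than in glands, against 26.6% and 22.1% of 27537 probe sets. For Orc1 (0.92 ± 0.20), Cdc45 (0.83 ± 0.17), Prim2 (0.95 ± 0.24), Rfc4 (0.88 ± 0.22) and Rfc1 (0.90 ± 0.21 and 0.89 ± 0.25), whose first-ranked set was not called, another set was called higher. Mcm3, Mcm10 and Fen1 had sets called in both directions, with 1 of the 5 Mcm3 sets at -0.92 ± 0.17. For Mcm4, Orc6, Pola1, Pole2, Pcna and Tyms no set was called. Counting any set, 32 of the 38 genes had at least 1 called higher.

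**Figure D3:**
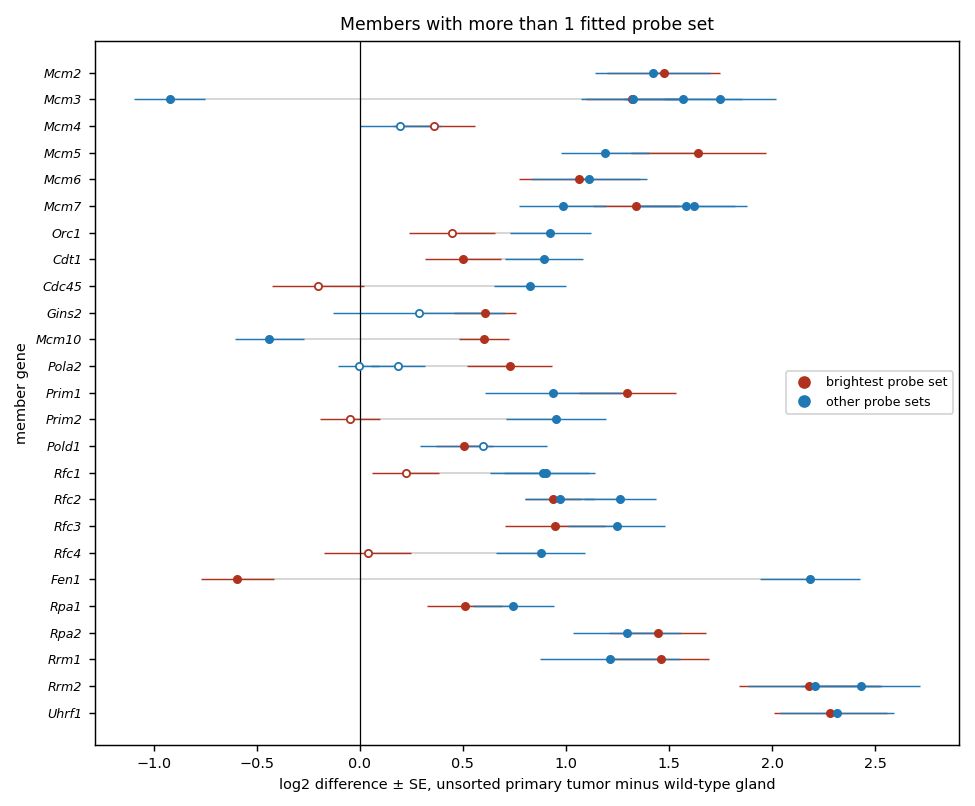
Difference between unsorted primary tumors and wild-type glands (log2, with SE) for every fitted probe set of the 25 genes measured by more than 1. Red marks the brightest set and blue the others, filled where called, and called sets lie on opposite sides of 0 for Mcm3, Mcm10 and Fen1 only.

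Cell types other than epithelium moved in the same comparison. All 10 endothelial markers and all 9 fibroblast markers were called lower in tumors (medians -2.65 and -2.83), and 4 of 8 epithelial markers higher (median 0.55). The mean over the fibroblast markers was 10.35 to 10.96 in glands and 5.59 to 10.25 in tumors, and the epithelial mean 9.74 to 11.12 in glands and 10.48 to 11.94 in tumors. In bulk tissue, more dividing epithelial cells and more RNA of these genes per cell cannot be told apart, and the part of cell makeup in the differences was not tested.

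The next comparison asks whether hyperplastic epithelium already differs from the normal gland. It sets sorted cells against whole tissue, so stage and sorting cannot be told apart, and it shares the gland arrays with the comparison above. In hyperplasia 12 members were called higher than in glands and none lower (22 with an unadjusted p under 0.05, against 33.8% of all genes). Among all genes 11% were called higher and 10.3% lower. The median difference was 0.59 for the members and 0.04 for all genes.

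Rrm2, Mcm5, Uhrf1 and Mcm3 had the largest differences. Mcm3 read 5.47, 6.00, 6.89, 6.9997 and 7.68 in glands and 8.10, 8.13, 8.44 and 8.63 in hyperplasia, so the groups did not overlap. It differed by 1.71 ± 0.30 (3.28-fold, limma adjusted p = 4.38e-05). Uhrf1 read 7.76, 7.81, 7.85 and 8.22 in hyperplasia, just above its highest gland at 7.75, with a difference of 1.72 ± 0.36 (adjusted p = 0.000567). Mcm5 stood at 9.18, 9.36, 9.45 and 9.54 and Rrm2 at 8.71, 9.15, 9.69 and 9.93, and in each gene 3 of 4 samples were above every gland. Their differences were 1.78 ± 0.43 (adjusted p = 0.00232) and 2.04 ± 0.45 (adjusted p = 0.000924). The other calls were Rpa2 (1.16 ± 0.31), Mcm2, Prim1, Rpa1, Cdc45, Pole, Cdt1 and Mcm4, between 0.70 and 1.16. For 7 members every hyperplasia sample was above every gland, namely Mcm3, Cdc6, Cdt1, Rfc1, Rfc5, Rpa1 and Uhrf1, against 9.27% of all genes. Cdc6 separated only next to the floor, at 5.00 to 5.01 in glands and 5.09 in the lowest hyperplasia sample, and was not called. At the level of probe sets 28 of 72 were called higher and 0 lower, against 10% and 10.1% of all sets, and 20 genes had at least 1 set higher. Among them was the dimmer Fen1 set, at 1.65 ± 0.32 (adjusted p = 0.000215).

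Several genes with large tumor differences were not called in this comparison. Tk1 read 6.24, 6.57, 6.80 and 7.04 in hyperplasia, and its difference from glands was 0.89 ± 0.40 (adjusted p = 0.0994), beside 2.43 ± 0.30 for unsorted tumors. Lig1 gave 0.65 ± 0.31 (adjusted p = 0.132) beside 1.48 ± 0.23, and Mcm7 0.71 ± 0.28 (adjusted p = 0.0566) beside 1.34 ± 0.21. Another of the 4 Mcm7 sets was called higher in hyperplasia (0.96 ± 0.32, adjusted p = 0.0245), as was the gene with the mean of its sets (0.78, adjusted p = 0.0492). Whether the differences themselves differ was not tested, since hyperplasia was sorted and those tumors were not. Only Mcm3 and Uhrf1 kept their call in every alternative setting run, and 3 members were called without hyperplasia replicates 1 and 2, the hyperplasia arrays with the highest hybridization spike-in signals (12.53 and 11.35 on the log2 scale, against 9.29 and 8.95). Macrophage markers were called higher in hyperplasia for 8 of 10 genes (median 2.16, list mean 10.19 to 11.32 against 8.34 to 9.36 in glands), and all 10 endothelial markers lower. Their part in the result was not tested.

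Sorted primary tumors were compared with sorted hyperplasia to follow the step from early lesion to tumor. Both groups were lacZ+ cells, but markers of other cell types differed between them, as given below. No member was called in either direction (limma), where 3.78% of all genes were called, 1.29% higher and 2.5% lower. No probe set of a member was called either, against 0.926% higher and 2.12% lower of all sets. The lowest adjusted p was 0.0791. Of the members 29 of 38 had a negative difference, with a median of -0.18 against 0.01 for all genes, and 9 had an unadjusted p under 0.05, against 17.6% of all genes.

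Among these 9, Pole2 (0.44 ± 0.22) and Pold2 (0.75 ± 0.31) were higher in tumor cells and Mcm3, Mcm4, Mcm6, Cdc45, Pcna, Rpa1 and Rpa2 lower. Cdc45 read 7.33, 7.47, 8.27 and 8.99 in hyperplasia and 7.002, 7.11 and 7.44 (lowest, median, highest) in sorted tumors, with 7 of 8 tumors below every hyperplasia sample and a difference of -0.83 ± 0.28. The high values came from hyperplasia replicates 1 (8.99) and 2 (8.27), the arrays with the high spike-in signals, while the other replicates lay near the highest sorted tumor. Without replicates 1 and 2 the difference was -0.21, without replicate 1 it was -0.50 (adjusted p = 0.616), and in a fit that adjusted for spike-in signal it was -0.28 (adjusted p = 0.694). It was called lower without replicate 3 or 4 and in 4 other settings. The rise of Cdc45 in hyperplasia over glands, 0.86 ± 0.30, was likewise 0.24 without replicates 1 and 2 (adjusted p = 0.747). These values are those of the brightest set. The other set, 1416575_at, was called higher in hyperplasia than in glands (0.94 ± 0.23, limma over all probe sets, adjusted p = 0.00265). It read 6.54 ± 0.11 (SD) in hyperplasia and 5.60 ± 0.44 in glands. Between sorted tumors and hyperplasia it gave -0.33 ± 0.21 (adjusted p = 0.463). Without hyperplasia replicate 4, Mcm4 and Pcna were called lower in sorted tumors as well. Pcna read 10.70, 11.25, 11.30 and 11.52 in hyperplasia and 9.64, 10.46 and 11.01 in sorted tumors (difference -0.71 ± 0.26, 95% interval -1.23 to -0.20, adjusted p = 0.105). For Rrm2 the difference was -0.22 with a 95% interval from -1.06 to 0.63, and for Tk1 it was 0.23 with one from -0.51 to 0.97, so rises or falls near 2-fold lie inside what these 12 samples allow. All 6 B and plasma cell markers, 4 of 9 fibroblast, 4 of 10 endothelial and 1 of 10 macrophage markers were called lower in sorted tumors than in sorted hyperplasia. None of the 8 epithelial markers was called. The mean over the fibroblast markers was 10.23 in hyperplasia and 7.96 in sorted tumors, and that over the macrophage markers 10.80 and 9.27. The part of these cell types in the differences was not tested.

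**Figure D4:**
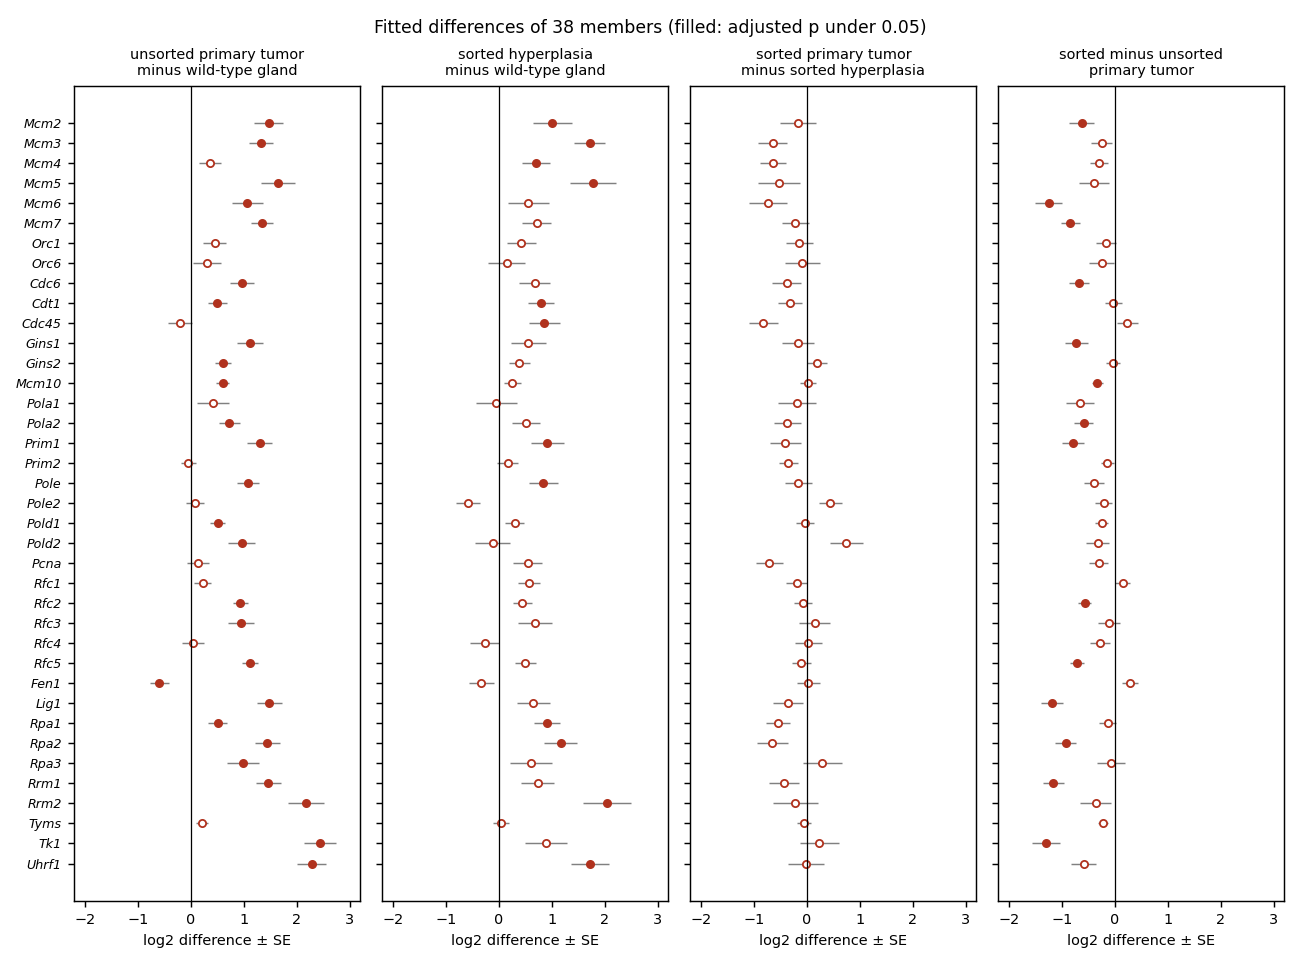
Difference (log2, with SE) of each of the 38 genes in 4 comparisons, with filled points where limma called the gene. Filled points lie right of 0 against glands, except Fen1 for the tumors, left of 0 for sorted against unsorted tumors, and there is none between sorted tumors and sorted hyperplasia.

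Sorted and unsorted primary tumors share a genotype and differ in the sort and in the mice used, which cannot be told apart, and the sorted tumors are the same as above. Their arrays differ as well, with Gapdh ratios of -0.36 to 0.11 in sorted and -0.06 to 0.59 in unsorted tumors. Replication genes were lower in sorted tumor cells: 14 of 38 members were called lower and none higher, where 15.7% of all genes were called lower and 9.62% higher. The median was -0.33 against -0.05 for all genes, and 19 members had an unadjusted p under 0.05, all of them lower, against 36.5% of all genes in either direction. With only sorted arrays of a Gapdh ratio under -0.1, 12 members were called lower and 1, Fen1, higher (0.75, limma adjusted p = 8.73e-06). In that setting 4535 of 15150 genes were called. The calls of Mcm2, Gins1 and Mcm10 were lost there and that of Pola1 was gained.

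Lig1 read 6.82, 7.34 and 7.71 (lowest, median, highest) in the 8 sorted tumors and 6.98, 8.44 and 9.12 in the 22 unsorted ones. The difference was -1.19 ± 0.20, a 2.28-fold lower level (limma adjusted p = 2.53e-05). Rrm1 read 6.80, 8.08 and 8.48 against 7.63, 9.09 and 9.53, which gave -1.16 ± 0.20 (adjusted p = 3.46e-05). In both genes the sorted median was near the lower end of the unsorted range, and 2 of 8 sorted tumors lay below every unsorted tumor. Tk1 (-1.30 ± 0.26, adjusted p = 0.000202) stood at 6.28, 6.91 and 7.76 against 6.52, 8.19 and 9.004. Mcm6 (-1.25 ± 0.25, adjusted p = 0.000271) stood at 7.72, 9.21 and 9.65 against 7.89, 10.15 and 10.88, and its lowest sorted values, 7.72 and 7.88, came from tumors F464T and F405T, which were also the lowest in Rrm1 and Lig1. Rpa2 (-0.93 ± 0.20), Mcm7 (-0.84 ± 0.18), Prim1 (-0.79 ± 0.21), Rfc5 (-0.72 ± 0.13) and Rfc2 (-0.57 ± 0.12) fell too, and these 5 with Lig1, Rrm1, Tk1 and Mcm6 are the 9 that kept their call in every setting run. Gins1, Cdc6, Mcm2, Pola2 and Mcm10 completed the calls. For Mcm10 (-0.33 ± 0.11) another set was called higher (0.71 ± 0.15, limma over all probe sets, adjusted p = 0.000282). That set was near the floor, with means of 5.72 in sorted and 5.05 in unsorted tumors. Mcm2 (-0.62 ± 0.24, adjusted p = 0.0478) lost its call in 18 settings.

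The genes that differed most between tumors and glands were not all called with the sort by their brightest probe set. Rrm2 had a sort difference of -0.36 ± 0.30 (adjusted p = 0.396), Uhrf1 -0.59 ± 0.24 (adjusted p = 0.0613), Mcm5 -0.39 ± 0.28 (adjusted p = 0.332) and Mcm3 -0.25 ± 0.19 (adjusted p = 0.37). These values are those of the brightest set, and each of the 4 genes had another set called lower. Those sets stood at -0.70 ± 0.25 for Rrm2 (adjusted p = 0.0362), -1.30 ± 0.24 for Uhrf1 (adjusted p = 8.65e-05), -0.82 ± 0.19 for Mcm5 (adjusted p = 0.000929) and -1.06 to -1.12 for 3 sets of Mcm3. At the level of probe sets 33 of 72 were called lower and 1 higher, against 14.4% and 10% of all sets, and 24 genes had at least 1 set lower. Beside these values, 5 of 10 macrophage and 2 of 9 fibroblast markers were called higher and 4 of 8 epithelial markers lower in sorted tumors (medians 1.17, 1.15 and -0.70). The macrophage mean was 7.25 to 10.96 in sorted and 7.08 to 9.44 in unsorted tumors. The part of these cells was not tested.

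Transplanted tumors were compared with primary tumors within each kind of sample. Among sorted samples no member was called, no gene of all 15150 was called (0%), and no member had an unadjusted p under 0.05, which 4% of all genes had (limma). The differences of the members ran from -0.18 to 0.38. No member separated the groups in full, and of all genes 0.0066% did so in the lower direction. The widest was that of Mcm6, 0.38 with a 95% interval from -0.20 to 0.95.

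Among unsorted samples no member was called either, where 0.944% of all genes were, although 32 of 38 differences were positive with a median of 0.29 (-0.00 for all genes). At an unadjusted p under 0.05 there were 6 members, against 10.3% of all genes. Uhrf1 read 8.76 and 9.18 in the CR115 transplants and 9.66 and 9.76 in the CR90 transplants, against 7.14, 8.47 and 9.17 in primary tumors. Its difference was 0.84 ± 0.32 (limma p = 0.0108, adjusted 0.249), and 3 of 4 transplants lay above every primary tumor. Tk1 (0.70 ± 0.34), Pola2 (0.55 ± 0.24), Mcm4 (0.53 ± 0.23) and Rfc4 (0.51 ± 0.24) were higher and Orc1 (-0.59 ± 0.24) lower at that level. For Tk1 both CR90 transplants (9.39 and 9.42) were above every primary tumor and both CR115 transplants (8.60 and 8.62) were not.

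In other members too, the CR90 pair of unsorted transplants differed from the CR115 pair. The mean over the 38 genes was 8.36 and 8.49 for CR90 and 7.99 and 8.05 for CR115. Gins1 read 8.20 and 8.24 for CR90 and 6.83 and 7.09 for CR115. Cdc45 ran the other way, at 5.59 and 5.67 for CR90 and 6.80 and 6.91 for CR115. Primary tumor CR115 lay with its own transplants in the mean (8.03), between the pairs in Gins1 (7.53) and with CR90 in Cdc45 (5.69). Median array intensities were 44.9 and 44.2 for CR90 and 42.9 and 46.2 for primary CR115, against 49.7 and 48.3 for the CR115 transplants. The part of the arrays was not tested. With only 2 tumors of origin, transplantation and the particular tumor cannot be told apart. A test of whether transplantation acted differently in sorted and unsorted samples called no member, where it called 0.0858% of all genes, 0.0132% higher and 0.0726% lower (limma). At an unadjusted p under 0.05 there were 2 members, against 7.87% of all genes, and the largest difference of effects was that of Uhrf1, -0.95 ± 0.42 (p = 0.0274, adjusted 0.526).

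The labels tie some transplants to their source tumor, and these pairs are given as values only. In sorted F433T4P1, passage 1 of tumor F433T4, 33 of 38 members were higher than in the source and 4 lower, where 45.2% of all genes were higher. Tk1 went from 6.28 to 7.42, Uhrf1 from 7.39 to 8.34, and Mcm5 from 8.75 to 9.58. In CR115-3 and CR115-4, 17 and 20 of 38 members were higher than in unsorted CR115, where 45.5% and 45.6% of all genes were higher, with median differences of -0.06 and 0.03. Cdc45 went from 5.69 in CR115 to 6.91 and 6.80, and Rfc1 from 6.76 to 7.86 and 7.67. The array medians given above also differ between CR115 and these transplants. Between passages 2 and 4 of tumor D279T1, 26 members were lower and 12 higher in the later passage, where 41% of all genes were higher. Rrm2 went from 10.11 to 8.30 and Tk1 from 7.45 to 6.35. The Gapdh ratio was -0.32 in passage 2 and -0.03 in passage 4. The part of passage or of the arrays in these values was not tested.

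Across single unsorted tumors the members varied more than most genes. Their median SD over the 22 tumors was 0.45, against 0.31 for all genes. The floor holds down the SD of genes near it, and 36 of the members lay above it in all tumors. The part of signal level in this excess was not tested. Tk1 (0.65), Mcm6 (0.64) and Orc6 (0.61) varied most, and Mcm10 (0.21) and the first-ranked Fen1 set (0.22) least. Tumor D14T2 had the lowest mean over the members, 6.99, and was the lowest tumor for 25 of the 38 genes. E93T1 had the highest mean, 8.465, and was the highest for 19. How many of all genes were lowest in D14T2 or highest in E93T1 was not counted. In D14T2 the mean of the mitosis list was 6.80 and of the fibroblast list 8.64, and in E93T1 they were 8.64 and 6.63, with epithelial means of 11.04 and 10.70.

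Tumors of the same mouse differed among themselves. Among the 6 mice with several tumors (14 tumors), the median within-mouse SD of the members was 0.39. The median SD of the means of the 14 mice was 0.38. For 18 members the within-mouse SD was the larger of these measures, as for 41.2% of all genes. The measures are unlike, since the mean of a mouse also carries within-mouse spread, so they do not show whether the mouse matters. In the fit of all genes and groups the correlation within a mouse was 0.358. Mouse D14 held D14T2 with 6.99 and D14T1 with 7.66 for the mean over the members, and mouse C117 held tumors from 7.58 to 8.23.

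Over the means of the 14 mice, most pairs of members were positively correlated. The median correlation over the 703 pairs of members was 0.52, and 86.6% of pairs were positive. The closest pairs were Mcm2 with Prim1 (r = 0.97), Cdc6 with Pold2 (r = 0.95) and Pola1 with Lig1 (r = 0.95). Orc1, Orc6, Cdc45 and Rfc1 followed the others least, with mean correlations of 0.01, -0.03, -0.01 and -0.06. These points share arrays and their scaling, and no value over pairs of all genes stands beside them, so the values are descriptions.

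Mki67, the Ki-67 antigen used to count dividing cells, is not a member and served as an outside measure of proliferation. It read 5.50, 5.86, 7.55, 7.99 and 8.69 in glands and 8.16, 9.65 and 10.20 in unsorted tumors. Over the 14 mice 35 of 38 members correlated positively with it, with a median r of 0.61 against -0.03 for all genes. After adjustment over 14924 genes, 2 members were called, where 0.221% of all genes were called positive, by a permutation test with 100000 permutations, two-sided. These were Pola1 (r = 0.85, p = 0.00011, adjusted p = 0.0448; Spearman's rho = 0.77, p = 0.00207) and Mcm2 (r = 0.81, permutation p = 0.00014, adjusted p = 0.0465; rho = 0.83, p = 0.00057). Lig1 had the highest r, 0.87 (adjusted permutation p = 0.0535). No member was called by rho.

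**Figure D5:**
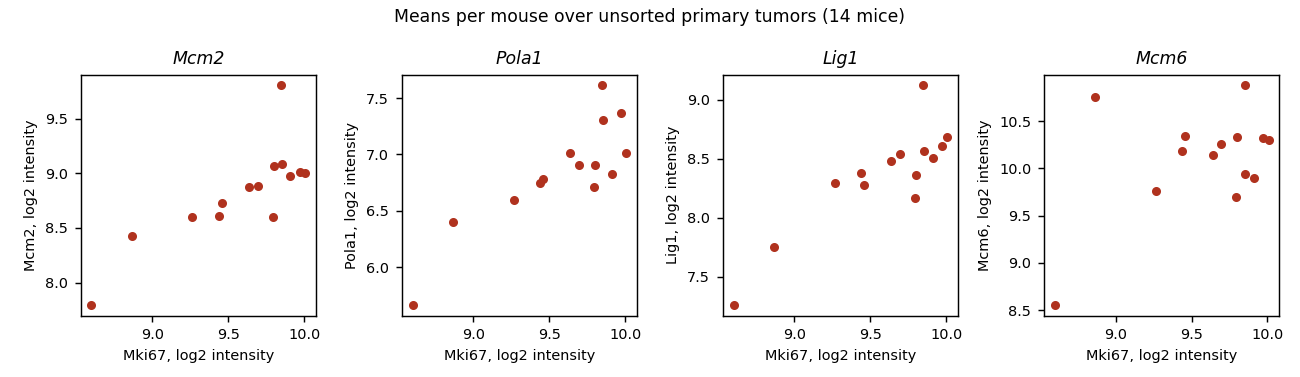
Mean log2 intensity of Mcm2, Pola1, Lig1 and Mcm6 (vertical axes) against Mki67 (horizontal axis) over the 14 mice with unsorted primary tumors, 1 point per mouse. Mcm2, Pola1 and Lig1 follow Mki67 with r between 0.81 and 0.87, and Mcm6 follows it with r = 0.45.

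Without D14 and C231, the mice farthest from the median of Mki67, r fell to 0.61 for Pola1, 0.56 for Mcm2 and 0.51 for Lig1. The median of the members fell to 0.39. Leaving out these mice narrows the range of Mki67, which lowers r for a true relation as well. The fall therefore cannot tell how far the relations rest on these 2 mice. The replication genes followed Mki67 unequally: Mcm6 had r = 0.45 and Pcna 0.44, and Orc1 (-0.34), Rfc1 (-0.27) and Cdc45 (-0.14) were negative.

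Other genes of the same processes give the setting, in lists that hold no member. Between tumors and glands 5 of 10 other licensing genes, 5 of 12 helicase activation and fork genes, 9 of 12 polymerase and clamp partners, 8 of 15 nucleotide supply genes and 4 of 6 chromatin assembly genes were called higher, with 0, 0, 1, 1 and 1 lower, beside 29.4% higher and 21.5% lower over all genes. Examples were Top2a, the topoisomerase that untangles replicated DNA, at 2.39, the Pcna partner Pclaf at 1.62, the Cdc7 kinase activator Dbf4 at 1.58, and Dut, which removes deoxyuridine triphosphate, at 1.42. Mitosis genes rose in 21 of 22 cases, with a median of 1.81, beside the member median of 0.94. Of the 11 E2F factors and pocket proteins 3 rose and 1 fell. E2f1, an activator of replication genes, differed by 0.88 ± 0.16 (limma adjusted p = 9.57e-06), and Mki67 by 2.45 ± 0.30.

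The same lists were also counted between sorted and unsorted tumors, where 15.7% of all genes were called lower. Mitosis genes fell in 16 of 22 cases (median -1.05), with Mki67 at -1.32 and E2f1 at -0.47, and the 5 replication lists, of 10, 12, 12, 15 and 6 genes, had 3, 4, 6, 4 and 4 lower and 0, 0, 1, 0 and 0 higher. In hyperplasia against glands 11 of 22 mitosis genes were higher and 1 lower, with Mki67 at 1.95 (adjusted p = 0.00041) and E2f1 at 0.71. The 5 replication lists had 1, 2, 2, 4 and 2 genes higher and 0, 0, 0, 2 and 1 lower, beside 11% higher and 10.3% lower over all genes, so the first 3 lists lay near that share. No gene of these lists was called between sorted tumors and sorted hyperplasia. In unsorted transplants Chtf18, part of an alternative clamp loader (0.82), and the purine synthesis enzyme Gart (0.91) were called higher, and the retinoblastoma gene Rb1 lower (-1.48).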

How the data were processed

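Arrays were hybridised with labelled RNA from Trizol lysates purified on Promega SV columns, per the labels' protocols. The deposited values are linear intensities per probe set, and the sources used here do not give how the authors summarised and scaled them. The medians of the arrays ran from 42.9 to 57.8 intensity units and 37.4% of values lay below the floor of 32. The number of arrays limits the precision. Deposited intensities were raised to at least 32 and turned to log2. Probe sets with 1 gene symbol in GEO's platform annotation were kept (34944 of 45101; 932 had several), and 1 with impossible values was left out. Each gene took its set with the highest mean, and genes above the 40th percentile of an array on at least 4 arrays were tested.

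All 6 groups, read from the sample titles, were fitted together with limma 3.58.1 (lmFit, eBayes; statmod 1.5.0, R 4.3.3) on 50 replicates, with the mouse as a random block (consensus correlation 0.358), since some mice gave several tumors. P-values, adjusted by Benjamini-Hochberg over 15150 genes, measure the spread between these tumors and mice. The 2 arrays of CR115 (r = 0.987) were averaged. Every member is named, with Mki67, E2f1 and, of other genes, up to 3 called genes with the largest difference per list and comparison. Correlations, tables and figures used Python 3.11.15 with numpy 2.4.6, pandas 2.3.3, scipy 1.17.1 and matplotlib 3.10.9. Simulated data with known changes were used to test the fit. Members and lists were chosen with earlier results of these data known. Alternatives were other floors, filters, normalization, probe set rules, blocks, array weights and left-out replicates.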

Additional observations from a re-analysis of the deposited data

Results flagged for a closer look

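In each group of 4 to 10 replicates the highest or lowest value of each member was set against the others by Dixon's criterion. Of 190 such groups of values 14 held a replicate far from the rest, where chance flags about 1 in 20. In glands these were Cdc6 at 5.01 and Cdt1 at 8.32 in G397, both high, and Mcm10 at 7.01 in G340, high. In hyperplasia Orc6 was high at 7.08 in F493H. In sorted primary tumors Prim1 was low at 6.42 in F464T, Tyms high at 5.40 in E344T, and G421T1 had a low Cdt1 of 7.42 and a high Rfc1 of 8.65. In sorted transplants Cdc45 was high at 8.01 in D279T2P2, Prim1 low at 7.01 in F402TP2, Tyms high at 5.90 in E344T2P1, and D279T1P4 had a low Rpa1 of 8.38 and a low Tk1 of 6.35. In unsorted transplants Rrm1 was high at 9.44 in CR90-2. The 2 Tyms values and the Cdc6 value lie within 1 log2 unit of the floor.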

How the results depend on the processing

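Of 27 alternative settings, 13 left out single replicates of the glands, hyperplasia or unsorted transplants. The count of members called between unsorted tumors and glands stayed between 22 and 30 and that between sorted and unsorted tumors between 12 and 21, beside 27 and 14. The member median between tumors and glands, 0.94, was 0.52 and 0.51 with floors of 64 and 100 and 0.63 with array weights. The 12 calls of hyperplasia against glands became 7 with a floor of 100 and 7 with only the groups compared, 5 with array weights and 3 without hyperplasia replicates 1 and 2, and 8 to 18 when single replicates were left out. Sorted tumors against hyperplasia gave 1 call, Cdc45, with a floor of 64 or 100, with the mean of probe sets and with no mouse block, and 0 to 3 with single replicates left out. Unsorted transplants against primary tumors gave 1 call, Pola2, with a floor of 64 or 100, and 5 with no mouse block (Gins1, Pola2, Rfc4 and Uhrf1 higher, Orc1 lower). With the mean of all probe sets of a gene, directions turned for Cdc45 (0.31), Prim2 (0.30), Fen1 (0.79) and Mcmbp (-0.39) between tumors and glands, for Mcm10 (0.13), Rfc1 (-0.40) and Nasp (0.0040) with the sort, and for Fen1 (0.66), Hells (0.11) and Mcmbp (-0.32) between hyperplasia and glands. This setting averages sets that disagree, and for the others the cause was not tested. Of 15183 values of single named genes under the alternatives, 14462 kept their direction and side of the threshold. Members near the floor (Tyms, Cdc6, Rpa2 in glands) have differences limited by the signal over background. No paired analysis was possible because the replicate numbers in the labels pair no samples across groups, and only F433T4 and CR115 have both a primary tumor and its own transplant in the same kind of sample. The mouse block carries these ties.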
